A study of Mus musculus with 6 samples.

Results

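The glucocorticoid receptor gene Nr3c1 and 9 genes that glucocorticoids are known to induce were read out in whole-lung RNA of 6 mice. The 10 genes were chosen by symbol: Nr3c1, Fkbp5, Tsc22d3, Zbtb16, Klf9, Sgk1, Dusp1, Errfi1, Per1 and Mt2. All 10 were found among the 25965 genes listed, and all 10 were among the 16708 genes tested. The mice were ZBTB46 DTR chimeras, in which the diphtheria toxin receptor is tied to Zbtb46, which marks classical dendritic cells. All 6 breathed 10% oxygen for 7 days; 3 were given diphtheria toxin (DT) and 3 were given vehicle (PBS). The first toxin dose, 40 ng per g body weight, came 1 day before hypoxia, and doses of 8 ng per g followed every 3 days, 3 doses in all. How the chimeras were made, and the age and sex of the mice, were not given in the sources used here. All mice carried the receptor and all were hypoxic, so dendritic cell loss and any other action of the toxin cannot be told apart. The study set out to find lung processes linked to protection from hypoxia-induced pulmonary hypertension in toxin-treated mice.

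Glucocorticoids are adrenal steroid hormones that follow the daily rhythm and rise with stress. They enter cells and bind a receptor held ready by HSP90 chaperones. The receptor then moves to the nucleus and binds palindromic response elements, which raises transcription of some genes and lowers that of inflammatory ones. In the lung this pathway matures the alveolar epithelium before birth, drives sodium and fluid uptake, and is the target of inhaled steroids.

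The windows around the gene starts show which regulatory sequences lie next to some of these genes. RefSeq sequences on build GRCm38.p6 run from 250 bases before to 50 bases after each start, and 8 of the 10 genes matched, with 17 windows. The windows below are of Sgk1, the only member with a strict receptor element in a window, of Fkbp5 and Mt2, the members with the largest differences between the groups, of Dusp1, and of Mt1, the neighbour and paralog of Mt2. Capitals mark every match, on either strand except for the TATA box, to the motifs searched. The strict glucocorticoid response element is AGAACA, then any 3 bases, then TGTTCT. Its relaxed form is GNACA, then any 3 bases, then TGTNC, and every strict match holds it. The E-box bound by clock proteins is CACGTG, and the cyclic AMP response element is TGACGTCA. The metal response element was searched by a core read as TGCGCNC or, in its other form, as TGCACNC. The TATA box is TATAAA. The Sgk1 window lies at chr10:21993640-21993939 on the + strand, Fkbp5 at chr17:28486100-28486399 on the - strand, Dusp1 at chr17:26508423-26508722 on the - strand, Mt2 at chr8:94172368-94172667 on the + strand and Mt1 at chr8:94178839-94179138 on the + strand.
Sgk1: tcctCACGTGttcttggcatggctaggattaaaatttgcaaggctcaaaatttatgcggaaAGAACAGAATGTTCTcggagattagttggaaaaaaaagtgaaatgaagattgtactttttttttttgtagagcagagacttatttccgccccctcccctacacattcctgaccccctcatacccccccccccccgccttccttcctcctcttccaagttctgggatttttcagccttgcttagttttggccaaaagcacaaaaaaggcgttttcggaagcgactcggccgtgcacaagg
Fkbp5: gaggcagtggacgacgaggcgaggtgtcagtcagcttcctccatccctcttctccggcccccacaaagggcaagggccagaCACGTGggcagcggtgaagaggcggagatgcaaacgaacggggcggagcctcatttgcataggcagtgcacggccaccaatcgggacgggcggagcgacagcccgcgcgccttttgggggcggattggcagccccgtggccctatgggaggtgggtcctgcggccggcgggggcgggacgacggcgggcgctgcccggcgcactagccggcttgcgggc
Dusp1: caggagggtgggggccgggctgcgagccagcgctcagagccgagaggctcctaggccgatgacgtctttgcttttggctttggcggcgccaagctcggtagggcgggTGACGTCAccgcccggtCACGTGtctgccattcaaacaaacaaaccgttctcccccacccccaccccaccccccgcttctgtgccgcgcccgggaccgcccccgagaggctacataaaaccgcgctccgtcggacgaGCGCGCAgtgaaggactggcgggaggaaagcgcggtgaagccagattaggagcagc
Mt2: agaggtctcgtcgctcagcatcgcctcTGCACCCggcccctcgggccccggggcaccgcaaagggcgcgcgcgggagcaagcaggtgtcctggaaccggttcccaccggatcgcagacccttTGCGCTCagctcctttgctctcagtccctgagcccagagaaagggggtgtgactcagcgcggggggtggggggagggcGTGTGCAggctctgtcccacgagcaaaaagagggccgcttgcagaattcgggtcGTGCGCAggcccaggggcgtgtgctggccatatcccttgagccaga
Mt1: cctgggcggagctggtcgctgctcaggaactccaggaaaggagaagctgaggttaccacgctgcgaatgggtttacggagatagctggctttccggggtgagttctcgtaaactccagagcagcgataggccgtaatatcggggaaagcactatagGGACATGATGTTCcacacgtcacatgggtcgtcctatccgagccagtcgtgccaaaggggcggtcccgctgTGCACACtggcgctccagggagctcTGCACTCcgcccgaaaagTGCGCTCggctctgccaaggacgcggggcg
The strict element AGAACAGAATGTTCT of Sgk1 starts 189 bases before that start and also holds the relaxed form. It was found in 1 of the 6 windows of Sgk1 and in no window of another member. Of all 32851 windows, 0.00913% held the strict and 0.475% the relaxed form. The relaxed match of Mt1, GGACATGATGTTC, starts 94 bases before its start. An E-box stood in 4 of the 17 windows (of Fkbp5, Sgk1, Dusp1 and Per1), against 7.15% of all windows. The cyclic AMP element stood in 2 of 17 (of Dusp1 and Errfi1), against 1.79%. The core TGCGCNC stood in 4 of 17, of Sgk1, Dusp1, Per1 and Mt2, against 15.4% of all windows. The core TGCACNC stood in 1 of 17, that of Mt2, against 12.6%. Counting both forms, the Mt2 window held 4 cores and the Mt1 window 3. The TATA box, read on the gene's strand, stood in 3 of 17 windows, of Sgk1 and Errfi1, against 8.32% of all windows. These are matches of letters and not shown to be bound sites.

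The libraries held 16766386 to 19084657 reads, and an exact permutation test of depth between the groups did not pass (2-sided p = 0.6, where 0.1 is the smallest p that 3 against 3 mice allow). Levels are in reads-per-million (RPM), and a ± sign after a level gives the SD over 3 mice. Markers of alveolar and airway epithelium, endothelium, fibroblasts and smooth muscle were present in every library, and all 10 dendritic cell markers were detected. Summed over those 10, dendritic cell markers stood at 224, 296 and 297 RPM in PBS mice 1 to 3 and at 220, 196 and 180 in DT mice 1 to 3, so PBS mouse 1 lay close to the toxin group. Zbtb46 and Irf8 made up most of these sums, and Zbtb46 was highest in PBS mouse 1. The groups did not overlap in 3 of the 10 (Zbtb46, Clec9a and Ccl17), all lower in DT, against 14.4% of all genes in either direction. In each of the other markers PBS mouse 1 lay within the DT range, and 0 of the 10 passed the test. In bulk RNA, fewer cells of a type and less RNA per cell cannot be told apart. Red cell precursor markers summed to 58.8 to 89.2 RPM with PBS and 181 to 233 with DT. Of these 7, 4 (Klf1, Epb42, Slc4a1 and Kel) passed as higher, against 0.275% of all genes, while Alas2, Hba-a1 and Hbb-bs did not, and Hbb-bs had a negative log2 fold change of -0.15. The 4 calls became 0 without DT mouse 1 (limma, 4 of 7 at an unadjusted p under 0.05), 1 without DT mouse 3 and 2 with a replicate block.

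The order of RPM values in this table differed from what is known of some very abundant genes. Sftpc, the surfactant gene that is among the most abundant lung transcripts, stood at 8.62 RPM per exonic kilobase and the actin gene Actb at 9.61. Nr3c1 stood above both at 22.8 RPM per exonic kilobase, while another surfactant gene, Sftpa1, stood at 44.8 and the antigen presentation gene Cd74 at 28.2. When the tested genes were split into 10 classes of about equal size by reads per exonic base, the median absolute log2 fold change between the groups went from 0.171 in the sparsest class to 0.0409 in the densest. The median SD of log2(RPM + 1) within groups went from 0.241 to 0.0653 over the same classes. The library with the fewest reads, DT mouse 1, lay 0.08 below the other 5 mice on the log2 scale in the sparsest class and 0.09 above them in the densest, as class medians. Of the 10 genes, 9 lay above the median density and 6 in the densest class. Fkbp5 was the exception, at 0.127 reads per exonic base against a median of 0.137. Whether reads at 1 position were counted once was not given in the sources used here, and its part in these levels was not tested.

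**Figure D1:**
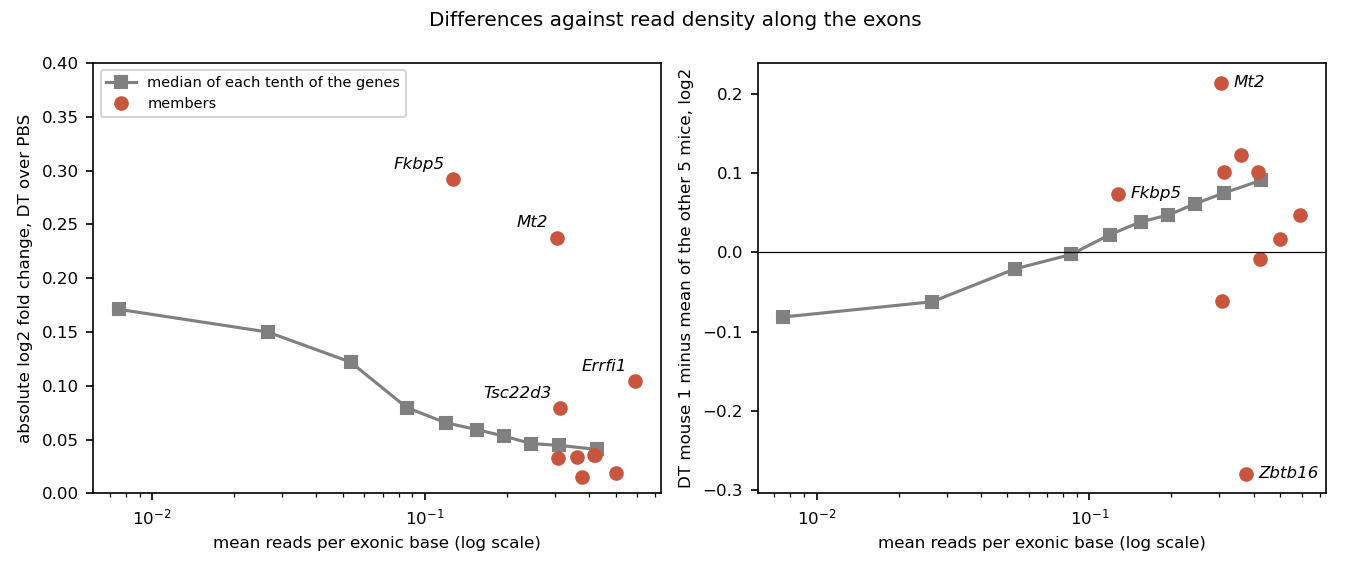
Left, absolute log2 fold change of DT over PBS against mean reads per exonic base (log axis), with grey squares for the median of each class of the genes tested and red points for the 10 genes. Right, log2(RPM + 1) of DT mouse 1 minus the mean of the other 5 mice on the same axis. The median difference falls from 0.171 to 0.0409 along the axis, and the shift of DT mouse 1 goes from negative to positive.

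None of the 10 genes passed the test between toxin and vehicle. The limma test across all genes called 0 of 10 higher and 0 of 10 lower, where it called 0.281% of all genes tested in either direction, 0.275% higher and 0.00599% lower. Limma-voom on recovered reads also called 0 of 10, against 0.215% of all genes. At an unadjusted p under 0.05, 2 of 10 (Fkbp5 and Errfi1) were higher, against 5% of all genes higher and 9.03% in either direction. Over 16 alternatives Fkbp5 kept an unadjusted p under 0.05 in 16 and Errfi1 in 11, while Mt2 gained it in 3. Errfi1 lost it without PBS mouse 1, PBS mouse 2, DT mouse 2 or DT mouse 3, and with centring within classes of reads per exonic base. The log2 fold changes on log2(RPM + 1) ran from -0.03 to 0.29, and 9 of 10 were positive, beside 8416 of all 16708 genes tested. Of these 9, Dusp1, Klf9 and Zbtb16 turned negative in some alternatives. The median of the 10 was 0.036, beside 0.0006 over all genes tested, and it was 0.020 with centring within classes of reads per exonic base. In 4 of 10 the values of the groups were fully apart, all higher in DT (Fkbp5, Mt2, Errfi1 and Tsc22d3), against 14.4% of all genes without overlap in either direction and 7.65% higher without overlap.

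**Figure D2:**
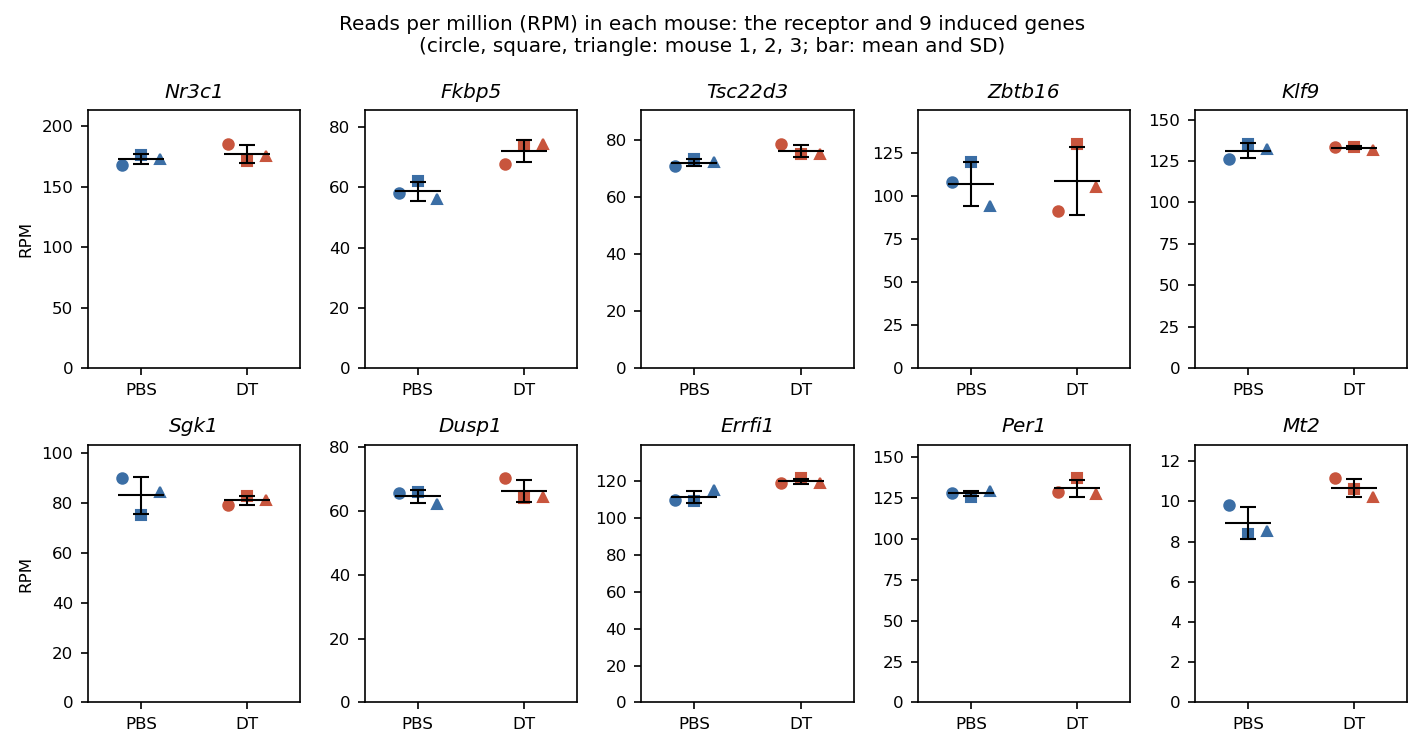
RPM in each mouse for the 10 genes, with a linear axis from 0 and a panel for each gene. Blue is PBS and red is DT, the symbols give mouse 1, 2 and 3, and the bar gives the mean and SD. The 3 DT values of Fkbp5 lie above the 3 PBS values, while Zbtb16 spreads widely within both groups.

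The receptor gene did not pass the test. Nr3c1 (ENSMUSG00000024431, mm10 chromosome 18, 39410545 to 39491301) stood at 168.2, 176.5 and 173.2 RPM in PBS mice 1 to 3 and at 185.4, 170.9 and 175.0 in DT mice 1 to 3. The groups overlapped, and the highest value was that of DT mouse 1. The log2 fold change was 0.04 ± 0.05 (SE), with a 95% interval of -0.07 to 0.15 (limma, adjusted p = 0.884), and it ranged from 0.0027 to 0.061 with each mouse left out. On the scale of fold change in RPM + 1, the interval runs from 0.95 to 1.106. Nr3c1 lay in the densest class of reads per exonic base. There DT mouse 1 stood 0.0908 above the other mice on the log2 scale as the class median, and 0.101 above them for Nr3c1. The part of that shift in the interval was not tested.

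Fkbp5 had the largest difference of the 10. It encodes a co-chaperone that binds HSP90 and lowers the receptor's affinity for hormone, and its induction is a classical sign of receptor activity. Fkbp5 (ENSMUSG00000024222, chromosome 17, 28399095 to 28517524) stood at 58.08, 62.19 and 56.01 RPM with PBS and at 67.93, 74.13 and 74.46 with DT. Every DT mouse lay above every PBS mouse, and DT mouse 1 was the lowest of the toxin group. The mean went from 58.8 ± 3.15 to 72.2 ± 3.68 RPM (SD, n = 3), a ratio of 1.23. The log2 fold change was 0.29 ± 0.06 with a 95% interval of 0.16 to 0.42, and it did not pass over all genes (limma, adjusted p = 0.142). Within its class of reads per exonic base, 6.19% of the genes had a larger absolute fold change, as a description. Fkbp4, the paralog that favours hormone binding, was at 49.8 ± 0.578 RPM with PBS and 50.8 ± 2.68 with DT.

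Tsc22d3 and Dusp1 encode restraints on inflammation. Tsc22d3, known as GILZ, a leucine zipper protein that binds NF-kappaB and AP-1 (ENSMUSG00000031431, chromosome X, 140539528 to 140600659), stood at 70.78, 73.23 and 72.36 RPM with PBS and at 78.67, 74.98 and 75.17 with DT. The groups did not overlap, but the gap between them was small and DT mouse 1 was the highest. The log2 fold change was 0.08 ± 0.04 (95% interval -0.02 to 0.18, limma adjusted p = 0.64). Dusp1, a phosphatase that switches off MAP kinases (ENSMUSG00000024190, chromosome 17, 26505590 to 26508519), stood at 65.79, 65.82 and 62.25 RPM with PBS and at 70.26, 64.04 and 64.29 with DT. Only DT mouse 1 lay above the PBS range. Its reads numbered 1178 to 1235 over the 6 libraries, the narrowest relative range of the 10 at 4.84%, with DT mouse 1 at the lowest number. The log2 fold change of Dusp1 was 0.03 ± 0.05 (limma, adjusted p = 0.91), or -0.0096 without DT mouse 1.

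Values of the transcription factors among the induced genes overlapped between the groups. Klf9, a zinc finger factor that also answers thyroid hormone (ENSMUSG00000033863, chromosome 19, 23141226 to 23166911), stood at 126.1, 135.3 and 132.2 RPM with PBS and at 133.4, 133.5 and 131.8 with DT. The DT mice lay inside the PBS range, with a log2 fold change of 0.02 ± 0.04 (adjusted p = 0.942 by limma), or -0.0091 without PBS mouse 1. Zbtb16, a repressor that also marks innate-like lymphocytes (ENSMUSG00000066687, chromosome 9, 48654311 to 48835945), stood at 108, 119.7 and 94.05 RPM with PBS and at 91.19, 130.4 and 105.6 with DT. It was the most variable of the 10, with a 1.43-fold range over the mice, and mouse 2 was the highest in both groups. Its log2 fold change was 0.02 ± 0.13 with a 95% interval of -0.28 to 0.31 (limma, adjusted p = 0.984). It was -0.12 without DT mouse 2 and -0.07 without PBS mouse 3. Adipocyte markers, all 5 of 5 detected, summed to 46.9, 97.1 and 76.0 RPM with PBS and to 39.5, 84.2 and 35.2 in DT mice, with mouse 2 again the highest in each group. Markers of natural killer and innate-like lymphocytes, all 7 of 7 detected, summed to 58.2, 85.6 and 102 RPM with PBS and to 61.9, 73.9 and 66.0 in DT. The part of either cell type in the level of Zbtb16 was not tested.

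Sgk1 and Errfi1 act in epithelial signalling, and neither passed the test. Sgk1, a kinase that raises sodium channel activity in epithelia (ENSMUSG00000019970, chromosome 10, 21882184 to 21999903), stood at 89.86, 75.20 and 84.26 RPM with PBS and at 79.09, 82.73 and 81.26 with DT. The DT mice lay within the PBS range. The log2 fold change was -0.03 ± 0.07 (95% interval -0.18 to 0.12, limma adjusted p = 0.932), the only negative value of the 10, and 0.03 without PBS mouse 1. Errfi1, an inhibitor of the EGF receptor (ENSMUSG00000028967, chromosome 4, 150853919 to 150868892), stood at 109.9, 109.1 and 115.2 RPM with PBS and at 118.7, 121.5 and 119.2 with DT. The groups did not overlap, and the log2 fold change was 0.10 ± 0.04 (95% interval 0.01 to 0.20, limma adjusted p = 0.524). Errfi1 was the densest of the 10, at 0.591 reads per exonic base. A listed gene that overlaps it in position, 1700045H11Rik, averaged 0.00906 RPM, and no other member overlapped a listed gene.

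Per1, a repressor of the circadian clock that glucocorticoids induce directly (ENSMUSG00000020893, chromosome 11, 69095217 to 69109960), stood at 128.1, 126.0 and 129.6 RPM with PBS and at 128.8, 137.2 and 127.5 with DT. Only DT mouse 2 lay above the PBS range, and the log2 fold change was 0.04 ± 0.04 (limma, adjusted p = 0.874), or 0.0032 to 0.056 with each mouse left out. Among its paralogs, Per2 was at 121 ± 6.43 RPM with PBS and 118 ± 10 with DT, and Per3 at 130 ± 11.7 and 101 ± 22.1.

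Mt2, a small metallothionein that binds zinc and copper (ENSMUSG00000031762, chromosome 8, 94172618 to 94173567), was the lowest of the 10 in RPM. It stood at 9.818, 8.367 and 8.541 RPM with PBS and at 11.15, 10.62 and 10.23 with DT, from 157 to 200 reads per library. The groups did not overlap, and PBS mouse 1 was the closest to the DT mice. The mean went from 8.91 ± 0.792 to 10.7 ± 0.466 RPM, a ratio of 1.2. The log2 fold change was 0.24 ± 0.11 with a 95% interval of -0.01 to 0.49 (limma, adjusted p = 0.562). In its density class 2.37% of the genes had a larger absolute value, as a description. That class had a median of 65.2 RPM, so Mt2 was set beside genes with more reads and less counting error. The same share was 6.19% for Fkbp5, 11.8% for Errfi1, 25.9% for Tsc22d3 and 55.9% to 79.2% for the remaining members. Mt1, its paralog, had a log2 fold change of 0.12 ± 0.09 (adjusted p = 0.751 by limma), at 13.20, 11.99 and 12.00 RPM with PBS and 14.25, 13.28 and 13.27 with DT. The groups did not overlap for Mt1 either. The genes are similar in sequence, and how reads that match both were counted was not given in the sources used here.

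**Figure D3:**
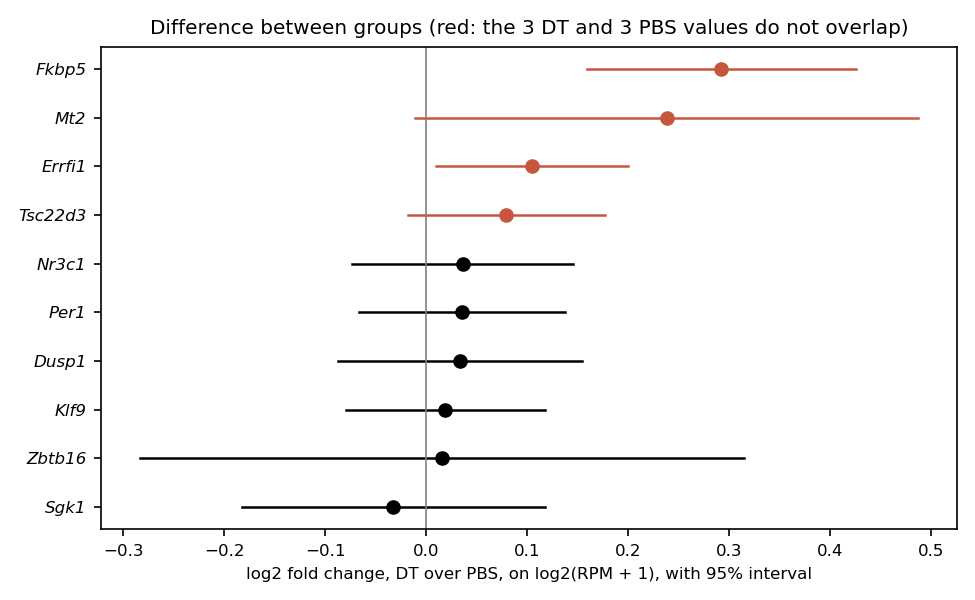
Log2 fold change of DT over PBS on log2(RPM + 1), with its 95% interval from limma, for the 10 genes in order of size. Red marks the 4 genes whose 3 DT and 3 PBS values do not overlap, and Fkbp5 at 0.29 and Errfi1 at 0.10 are those whose interval lies above 0.

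Per exonic kilobase, the order of the levels was Errfi1 (32.3 RPM per kilobase), Klf9 (27.4), Per1 (23.0), Nr3c1 (22.8), Zbtb16 (20.5), Dusp1 (19.8), Tsc22d3 (17.1), Sgk1 (16.7), Mt2 (16.6) and Fkbp5 (6.91). Per1 and Nr3c1 overlapped in their spread over the mice. The wide range of Zbtb16 overlapped those of Per1, Nr3c1, Dusp1, Tsc22d3, Sgk1 and Mt2. Dusp1 lay below Per1 and Nr3c1 in every mouse. Tsc22d3, Sgk1 and Mt2 overlapped with each other, and Mt2 also with Dusp1. Fkbp5 stood apart at the low end. Over the 6 mice, DT mouse 1 was the highest in 4 of the 10 genes, DT mouse 2 in 3 and DT mouse 3 in 1. PBS mouse 2 was the lowest in 4, PBS mouse 1 in 3, PBS mouse 3 in 2 and DT mouse 1 in 1. In number of reads, before scaling, DT mouse 1 was below both other DT mice in all 10.

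The 5 genes whose profile over the 6 mice was closest to the mean profile of the 10 were Ercc5, Ncl, Cc2d1b, C2cd5 and Sdad1. Their root mean square difference from that profile was 0.0102 to 0.0215 on the log2 scale, out of 13727 genes searched. Their log2 fold changes lay between 0.06 and 0.10. Choosing genes by closeness to that profile sets these values near the profile's own difference between the groups.

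Other genes that glucocorticoids induce also stayed short of the threshold. Of 30 on the list, 29 were tested, 0 passed in either direction and 5 were higher at an unadjusted p under 0.05 (limma), where 5% of all genes were. The median log2 fold change was 0.05, in a range from -0.53 to 0.63. There were 20 positive and 9 negative, beside 8416 positive of all 16708 genes tested. The groups did not overlap in 8, of which 7 were higher in DT, beside 14.4% and 7.65% of all genes. The most abundant were Cavin2, a caveola component, at 144 ± 4.71 RPM with PBS and 146 ± 7.39 with DT, and Scnn1a, the sodium channel subunit that acts downstream of Sgk1, at 141 ± 3.5 and 152 ± 8.75. The 5 genes, named after their values were seen, were Map3k6 (0.21 ± 0.06), Irs2 (0.32 ± 0.10), Angptl4 (0.38 ± 0.13), Fam107a (0.15 ± 0.05) and Bcl6 (0.14 ± 0.06), with adjusted p from 0.394 to 0.514. Irs2, an adaptor of insulin signalling, stood at 67.84, 86.50 and 93.06 RPM with PBS and at 99.84, 104.4 and 101.7 with DT.

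Among the same genes, Hif3a and Pdk4 split the toxin group. These were chosen after their values were seen. Hif3a, an inhibitory member of the hypoxia-inducible factor family, stood at 14.59, 20.78 and 15.61 RPM with PBS and at 14.55, 41.42 and 30.78 with DT. Pdk4, a kinase that holds back glucose oxidation, stood at 25.96, 25.63 and 29.60 RPM with PBS and at 24.16, 42.32 and 37.09 with DT. In both, DT mice 2 and 3 were above all PBS mice and DT mouse 1 was below them. The log2 fold changes were 0.63 ± 0.32 for Hif3a (limma, adjusted p = 0.619) and 0.31 ± 0.18 for Pdk4 (limma, adjusted p = 0.676), or 1.04 and 0.54 without DT mouse 1.

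**Figure D4:**
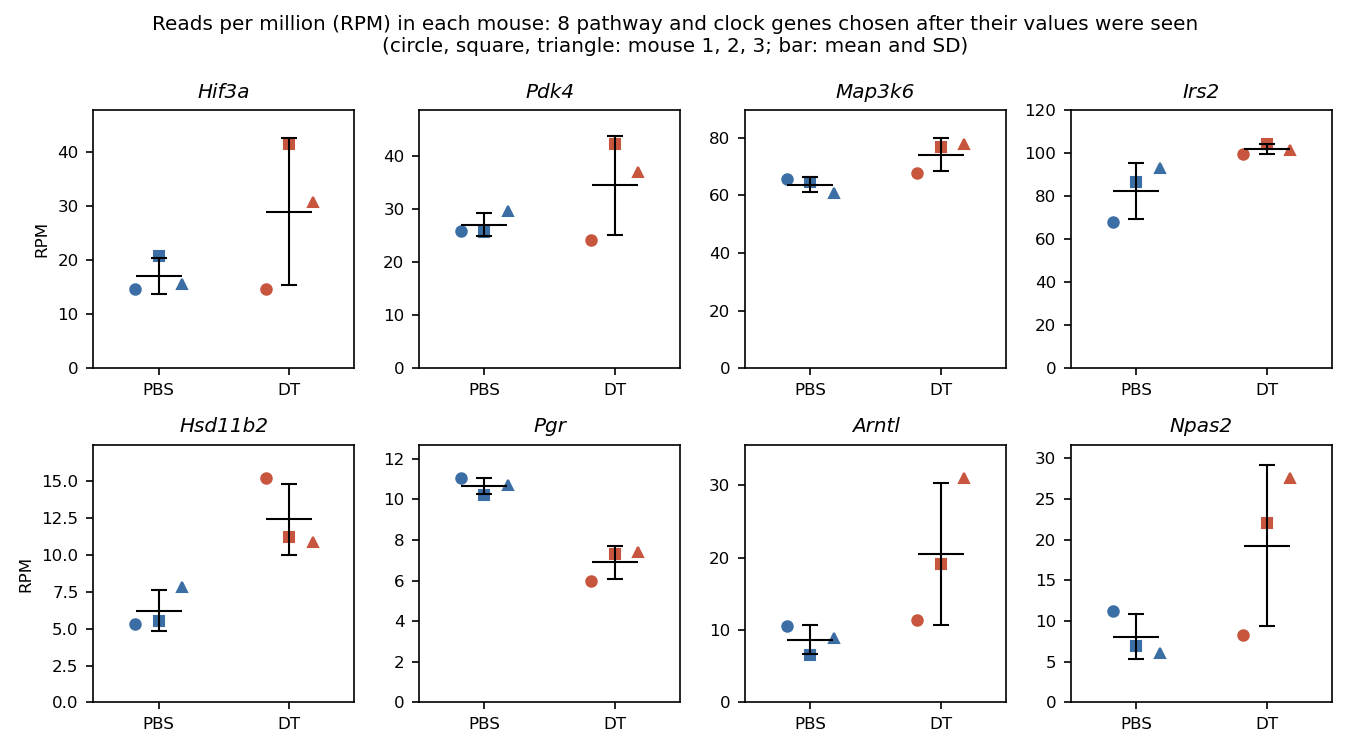
RPM in each mouse for 8 pathway and clock genes chosen after their values were seen, drawn as for the 10 genes, with linear axes from 0. Hif3a, Pdk4, Arntl and Npas2 are higher in DT mice 2 and 3 than in DT mouse 1, while Hsd11b2 and Pgr separate the groups in opposite directions.

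The receptor's partners were chaperones and coregulators that hold it or carry its signal. Of 20 such genes tested, 0 passed and 2 were higher at an unadjusted p under 0.05 (limma), where 5% of all genes were. The median log2 fold change was 0.05 and 16 were positive, beside 8416 of all 16708 genes tested. Ep300, an acetyltransferase that assists the receptor, stood at 194 ± 14.4 RPM with PBS and 210 ± 6.4 with DT. Crebbp, the relative of Ep300, had a log2 fold change of 0.17 ± 0.06 (adjusted p = 0.433 by limma).

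Genes of hormone supply and related receptors included pairs of groups that lay far apart without passing the test. Of 10 genes 9 were tested, 0 passed and the median log2 fold change was -0.01. At an unadjusted p under 0.05 (limma) there were 3, beside 9.03% of all genes in either direction. These 3 are named after their values were seen. Hsd11b2, the enzyme that turns active glucocorticoid into its inactive form, stood at 5.325, 5.543 and 7.807 RPM with PBS and at 15.21, 11.20 and 10.88 with DT. The groups did not overlap, with a log2 fold change of 0.90 ± 0.18 (adjusted p = 0.142 by limma). Pgr, the progesterone receptor, stood at 11.04, 10.23 and 10.69 RPM with PBS and at 5.964, 7.328 and 7.397 with DT. It did not overlap either, in the other direction, at -0.57 ± 0.12 (limma, adjusted p = 0.174). Abcb1b, a pump that exports steroids, had a log2 fold change of 0.28 ± 0.09. H6pd, which supplies the activating enzyme with cofactor, was at 140 ± 1.09 and 149 ± 10.3 RPM, and the transporter Abcb1a at 97 ± 4.78 and 96.3 ± 6.25. Nr3c2, the mineralocorticoid receptor, which binds the same hormones, was at 51.5 ± 8.55 RPM with PBS and 49.4 ± 4.86 with DT.

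Cytokine and adhesion genes that glucocorticoids repress did not pass either. Of 17 tested, 0 passed and 2 were higher at an unadjusted p under 0.05 (limma), where 5% of all genes were. The median log2 fold change was 0.20 and 13 were positive, beside 8416 of all 16708 genes tested. Il6 stood at 1.72, 1.066 and 0.4716 RPM with PBS (31, 20 and 9 reads) and at 2.982, 2.602 and 2.665 with DT (50, 49 and 49 reads). It was the only gene of the list whose groups did not overlap (0.89 ± 0.22, limma adjusted p = 0.283), beside 14.4% of all genes in either direction. Its log2 fold change was 1.53 on the deposited values, without a pseudocount, and 1.5 by limma-voom. Ptgs2, the inducible cyclooxygenase, had a log2 fold change of 0.43 ± 0.14. The abundant adhesion genes Icam1 and Vcam1 were at 0.08 ± 0.05 and 0.08 ± 0.06. Classical monocyte markers did not overlap between the groups in 4 of 4, 0 of which passed the test, beside 7.65% of all genes higher without overlap, with summed levels of 123 to 168 RPM with PBS and 178 to 225 in DT. Their part in the cytokine values was not tested.

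**Figure D5:**
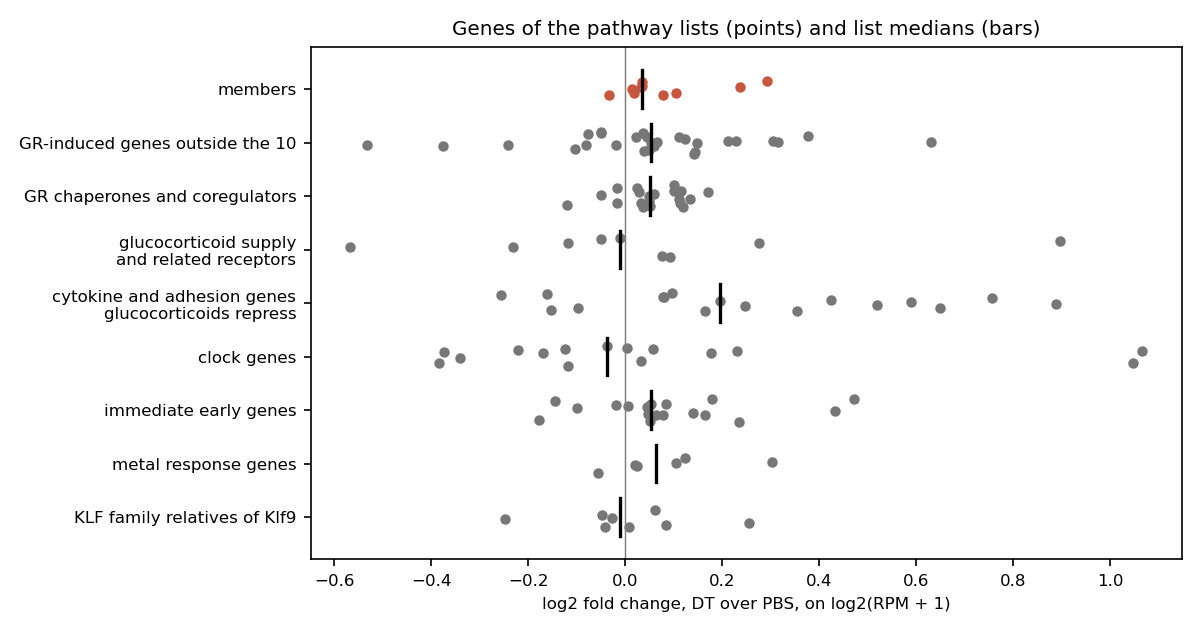
Log2 fold change of DT over PBS on log2(RPM + 1) for the tested genes of each list (points, spread vertically at random for display) with list medians (black bars). The 10 genes, in red, lie between -0.03 and 0.29. The lists of supply and related receptors, clock genes, other induced genes and repressed cytokine genes spread the most widely.

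Clock genes, of which Per1 is a part, did not pass the test either. Of 15 tested, 0 passed while 7 were past an unadjusted p of 0.05 (limma), 4 higher and 3 lower, beside 9.03% of all genes in either direction, and the median log2 fold change was -0.04. Arntl, which encodes the activator BMAL1, stood at 10.54, 6.555 and 8.960 RPM with PBS and at 11.39, 19.17 and 30.95 with DT, and its relative Npas2 at 11.21, 6.982 and 6.078 and at 8.290, 21.98 and 27.52. Clock was at 0.23 ± 0.06 on the log2 scale and Cry1 at 0.18 ± 0.07. The output genes Dbp, Hlf and Tef were at -0.37 ± 0.11, -0.34 ± 0.08 and -0.12 ± 0.07, and Per3 at -0.38 ± 0.15. The time of day at which lungs were taken was not given in the sources used here.

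Genes that share other inducers with the 10 were checked last. Of 19 immediate early genes, which growth factors and stress induce as they do Dusp1 and Errfi1, 0 passed. Their median log2 fold change was 0.05, and 4 were past an unadjusted p of 0.05 (limma), 2 in each direction, beside 9.03% of all genes. The most abundant were Dusp6 (0.0059 ± 0.06) and Egr1 (0.16 ± 0.06), and the other 3 were Atf3 (0.43 ± 0.16), Nr4a1 (-0.14 ± 0.06) and Dusp5 (-0.18 ± 0.08). Atf3 passed without PBS mouse 1 (0.63, limma adjusted p = 0.0483). Limma-voom also called 0 genes of each of the 8 lists. Of 6 metal response genes tested, 0 passed and 1 was higher at an unadjusted p under 0.05, where 5% of all genes were. It was the zinc importer Slc39a14 (0.30 ± 0.07, limma adjusted p = 0.213). The zinc exporter Slc30a1 (-0.06 ± 0.06) and Gclc (0.10 ± 0.06) were the most abundant. Of 8 relatives of Klf9, 0 passed and 2 were past an unadjusted p of 0.05, beside 9.03% of all genes. These lay in opposite directions, Klf5 (0.26 ± 0.07) and Klf11 (-0.25 ± 0.10). The abundant Klf13 and Klf7 were at 0.08 ± 0.05 and -0.05 ± 0.05.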

How the data were processed

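Messenger RNA libraries of whole lung from 3 PBS and 3 DT mice were analysed, grouped by the sample titles. Deposited values are log2 of reads-per-million (RPM) per gene, with symbol, Ensembl identifier and position. Per the submitters' processing notes, FastQC and Trimmomatic were used, with build mm10. The aligner, the counter, its use of strand and its handling of duplicate reads were not given in the sources used here. Back on the linear scale, 100% of values were whole multiples of 1 read (tolerance 0.1%), and genes with no read were entered as 0.9 of a read, taken here as 0. Between 69.82% and 73.13% of each library's total lay in listed genes. A gene with no read allows up to 3 reads, 0.157 to 0.179 RPM, for counting error only.

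The main test used limma (version 3.58.1, R version 4.3.3) on log2(RPM + 1), allowing the variance to follow the mean level, 2-sided, adjusted over all genes tested (Benjamini-Hochberg, threshold 0.05). On this scale fold changes of low genes are understated. A gene needed 0.538 RPM in 3 libraries, equal to 10 reads at median depth, and 15 reads in total. The code was tested on simulated data. Current symbols and exonic lengths came from GENCODE M21, which held 25035 of the identifiers.

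The 10 genes and the lists were chosen with earlier results of these data known. The text names all 10, the members of each list past the threshold or else the most abundant 2, paralogs, and the 5 genes with the closest profile. A gene that the rule covers is not reported here. Genes named outside this rule are those at an unadjusted p under 0.05, Hif3a and Pdk4, chosen after their values were seen. Alternatives covered scaling, low-value filter, pseudocount, limma-voom, a replicate block, leaving out each mouse and, added after the data were seen, centring within 20 classes of reads per exonic base. Plots were drawn with matplotlib 3.10.9.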

Additional observations from a re-analysis of the deposited data

How the results depend on the processing

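The count of members past the threshold stayed at 0 higher and 0 lower in all 16 alternatives run. Over all genes, 46 were higher and 1 lower. Leaving out each mouse in turn moved these counts between 0 and 56 and between 0 and 90. Both were 0 without DT mouse 1 (limma, 630 and 497 at an unadjusted p under 0.05), and without DT mouse 3 they were 14 and 0. The lower count was 10 without PBS mouse 1, 90 without DT mouse 2, 0 under the trimmed mean of M-values and under median-of-ratios scaling, and 2 under upper-quartile scaling. With a replicate block the counts were 8 and 0. In the settings where the lower count was 0, 470 to 783 genes were lower at an unadjusted p under 0.05 (limma). The numbers were not taken to pair the mice: same-numbered mice had deviations correlated at 0.08, 0.27 and -0.10 over genes, and DT mouse 1 correlated best with PBS mouse 3. The median log2 fold change of the members was 0.036, 0.026 under upper-quartile scaling, 0.020 with centring within classes of reads per exonic base, and 0.042 to 0.071 with each mouse left out. Fkbp5 stayed between 0.26 and 0.33, with adjusted p from 0.144 to 0.517 over the alternatives. Direction turned for Zbtb16 with that centring (-0.0008) and for Dusp6 with that centring (-0.0064) and under upper-quartile scaling (-0.0042). With each mouse left out, direction also turned for Zbtb16 (-0.12 to 0.14), Dusp1 (-0.0096 to 0.056), Klf9 (-0.0091 to 0.041), Sgk1 (-0.10 to 0.025), Dusp6 (-0.026 to 0.057), Cavin2 (-0.017 to 0.052), Abcb1a (-0.062 to 0.025), Fkbp4 (-0.018 to 0.048), Nr3c2 (-0.19 to 0.037) and Per2 (-0.086 to 0.032). The causes were not tested, and fits that leave out a mouse also hold fewer mice. The planned edgeR fit on recovered reads was not run, and limma-voom was the fit on those reads.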
